A study of Mus musculus with 4 samples.

Results

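Mouse chromosome 11 carried 2193 of the 29116 CTCF regions (7.53%) found by ChIP-seq in the B cell lymphoma line WEHI-231, and it had the highest density of regions of the 19 autosomes. A region is the merged span of all peaks of the 4 deposited lists that overlap by at least 1 bp, and the members are all regions on chromosome 11. Positions are those of the build mm9. The 4 libraries came from 2 groups of one cell line: 2 control libraries of Wehi-231 (labelled CT) and 2 libraries of Wehi-231 with a stable knockdown of TFII-I. Cells of both groups were grown in DMEM with 10% FBS for up to 12 passages, and both were precipitated with the same CTCF antibody from Millipore. The line derives from a (BALB/c x NZB)F1 mouse. No source used here gives what the control cells carry in place of the knockdown construct, the degree of knockdown, or whether the knockdown cells are a clone or a pool. The labels number the replicates without saying that they are separate cultures, so the spread between replicates may be technical. Chromosome 11 was chosen by its density of regions, its missing knockdown calls and its ranks by score in these same lists. Those values are therefore given as a description, without a test over regions.

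CTCF is a DNA-binding protein with many zinc fingers. It sits at insulators and at a share of gene promoters, and together with cohesin it anchors chromatin loops. TFII-I, encoded by Gtf2i, is a multifunctional transcription factor, and the title of the series concerns its part in bringing CTCF to promoters. Mouse autosomes have their centromere at one end, so that low positions on chromosome 11 lie near the centromere and high positions near the distal telomere. The chromosome is rich in genes and carries, among others, the alpha globin genes and the Hoxb cluster. Gene annotation of mm9 was not used here, and regions are given by position.

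The number of peaks on chromosome 11 was lower in both knockdown lists. Control replicates 1 and 2 held 1879 and 1840 peaks there, and knockdown replicates 1 and 2 held 1435 and 1128. The control mean was 1859.5 ± 27.6 (SD, n = 2) and the knockdown mean 1281.5 ± 217 (SD, n = 2), or 68.9% of the control. The groups did not overlap, but the two-sided exact permutation test over the 4 libraries gave p = 0.33, the smallest value that 2 libraries against 2 allow. The complete knockdown lists were shorter as well, with 19076 and 15309 peaks against 24467 and 23873. Sequencing depth is unknown here, and its part in the lengths of the lists was not tested.

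As a share of its list, chromosome 11 lost a little ground in the knockdown lists. It took 7.68% (95% Clopper-Pearson interval 7.35 to 8.02%) and 7.71% (7.37 to 8.05%) of the peaks of control replicates 1 and 2. In knockdown replicates 1 and 2 it took 7.52% (7.15 to 7.91%) and 7.37% (6.96 to 7.79%). These intervals cover counting error only, and they overlap between all 4 libraries. Both knockdown shares lay under both control shares, by 0.248 percentage points on average, again with an exact permutation p of 0.33. Chromosomes 2, 4, 5 and 17 also had both knockdown shares under both control shares. Relative to its control share, chromosome 11 stood at -3.23% in the knockdown lists. Only chromosome 17 stood lower among the autosomes, at -3.60%, and chromosome 3 stood highest at 5.77%. When each list was limited to its 15309 top-scoring peaks, chromosome 11 held 1203 and 1187 control peaks and 1138 and 1128 knockdown peaks. The order of the groups was thus the same in lists of equal length, with a difference of 62 peaks in place of 578.

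CTCF regions were packed more closely on chromosome 11 than on any other autosome. It held 18.5 regions per Mb between its first and last region. The other 18 autosomes ranged from 8.88 per Mb on chromosome 3 to 15.4 per Mb on chromosome 19. The median gap between neighbouring regions was 21675.5 bp on chromosome 11 and 29212 bp on the other autosomes, and 29.5% against 24.8% of gaps were under 10 kb. Within 250 kb of a region called in both controls lay a median of 11 other such regions, where the other autosomes had medians of 5 to 9.

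The density was uneven along the chromosome. In 5 Mb bins numbered from the centromeric end, the 23 full bins held a median of 82 regions, 1.74 times the median of 47 in the 443 full bins of the other autosomes. Bin 24 (115 to 120 Mb) held 190 regions and bin 20 (95 to 100 Mb) held 188. Of all 443 full bins elsewhere only 1 had over 180 regions, and the fullest held 185. At the other end stood bin 8 (35 to 40 Mb) with 16 regions and bin 3 (10 to 15 Mb) with 20. More than 100 regions were found in 9 of the 23 full bins of chromosome 11 (39.1%) and in 58 of the 443 elsewhere (13.1%). The widest gap ran over 3592 kb, from 12711678 to 16303536. Between them, the 10 bins from 75 Mb on held 1208 of the 2193 regions (55.1%).

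**Figure D1:**
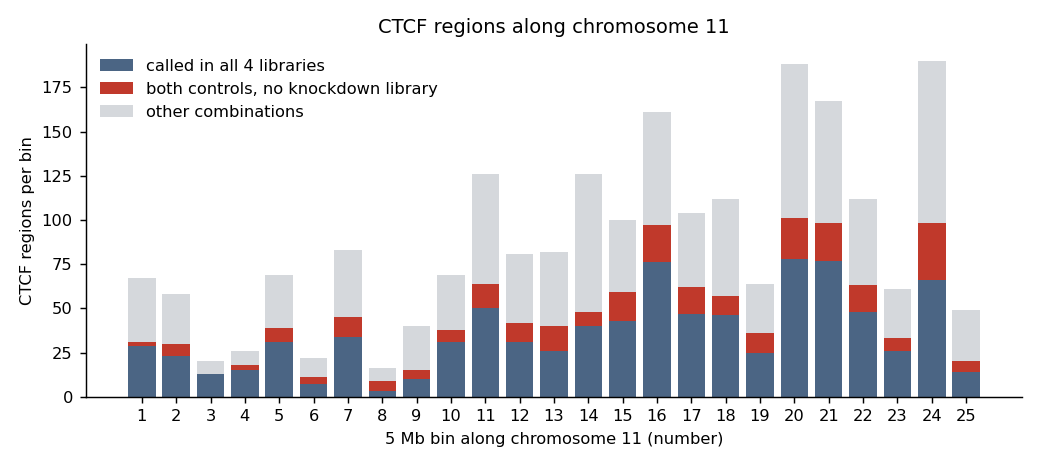
CTCF regions per 5 Mb bin of chromosome 11, numbered from the centromeric end, stacked by the libraries that call them. Bins 20 and 24 hold 188 and 190 regions and bins 3 and 8 hold 20 and 16, and control-specific regions (called in both controls and in no knockdown library) occur in every bin except bin 3.

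By the authors' score, control peaks on chromosome 11 were slightly stronger than those of the other autosomes. The lowest score in any list is 50. On chromosome 11 the median score was 115 in control replicate 1 and 111 in control replicate 2, where the other autosomes had 111 and 107. In knockdown replicate 1 the medians were 85.9 and 85.5, and in knockdown replicate 2 they were 78.8 and 79.2. Ranked by score within each list in percentile points, chromosome 11 peaks stood 1.17 and 1.25 points above those of the other autosomes in the controls. The same gap was 0.196 points in knockdown replicate 1 and -1.06 points in knockdown replicate 2. Both knockdown gaps lay below both control gaps, with an exact permutation p of 0.33. Peaks with a score of at least 100 made up 59.0% and 57.3% of control peaks on chromosome 11, and 36.4% and 27.2% of knockdown peaks. On the other autosomes these shares were close, with control values of 57.4% and 55.6% and knockdown values of 35.6% and 28.4%.

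Peak widths on chromosome 11 resembled those elsewhere in each library. The median widths were 495 and 511 bp in the control lists, with 483 and 507 bp on the other autosomes. In the knockdown lists they were 329 and 441 bp, with 328 and 446 bp elsewhere. Just 25 regions (1.14%) were wider than 1 kb, against 0.989% on the other autosomes. The region at the start of the assembled chromosome, from 3000002 to 3004967, merged 9 peaks over 4966 bp. It scored 370 and 363 in the control lists and 307 and 153 in the knockdown lists. Such wide regions were kept.

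The 3 strongest regions were chosen by their mean rank over all 4 libraries. High places in the knockdown lists follow from that choice and are given as a description. The first, from 53953372 to 53954401, showed control scores of 1101 and 634 and knockdown scores of 1173 and 686. It lies in bin 11 and stood at places 14, 70, 19 and 24 of the 4 lists. The region from 69392702 to 69393375 showed control scores of 791 and 707 and knockdown scores of 505 and 407, at places 41, 40, 50 and 52. For the region from 78266934 to 78267748 the scores were 801, 559, 434 and 363, at places 38, 116, 75 and 61. The scores of the last pair of regions were lower in the knockdown lists while their places were similar, as scores were lower over the whole of those lists. No member reached the highest score of all lists, 3100.

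Of the 1621 regions of chromosome 11 called in both control libraries, 889 (54.8%) were called in both knockdown libraries, 454 (28.0%) in 1 of them and 278 (17.1%) in neither. The last are named control-specific regions here. Over all chromosomes 14.8% of regions called in both controls were control-specific. On the other autosomes the share was 14.6% (95% Clopper-Pearson interval 14.1 to 15.1%), against 15.3 to 19.1% for chromosome 11, and single chromosomes ranged from 12.3% on chromosome 16 to 16.0% on chromosome 4. The interval covers counting error over regions, which are not replicates. Of the 454 regions with a single knockdown call, 355 were called in replicate 1 and 99 in replicate 2, the library with the shorter list. On the other autosomes these numbers were 3923 and 1435 of 5358. In the opposite direction, 9 of 930 regions called in both knockdown libraries (0.968%) had no control call, where the share over all chromosomes was 1.14%.

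The chromosome's share without a knockdown call was higher than that of other autosomes at equal control strength. Regions called in both controls were ranked by the mean of their percentile ranks in both control lists, and the other autosomes gave the expected share in 20 bins of that rank. On chromosome 11, 234 control-specific regions (14.4%) were expected and 278 were observed, an excess of 2.71 percentage points and the highest of the 19 autosomes. The excess elsewhere ran from -3.39 points on chromosome 18 to 1.29 points on chromosome 4. Knockdown replicate 1 lacked 23.3% of the regions called in both controls, 1.33 points above the expected share. Knockdown replicate 2 lacked 39.0%, 4.09 points above. Without knockdown replicate 2 the excess was 1.31 points, and without knockdown replicate 1 it was 4.09 points. In replicate 1 chromosomes 2 and 1 had a higher excess than chromosome 11, and in replicate 2 none of the other 18 autosomes did.

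The same measure between the control libraries gave the background. Of regions called in control replicate 1 on chromosome 11, 13.3% lacked a call in control replicate 2, which was -1.12 points from other autosomes of equal rank. In reverse, 11.7% lacked a call, -0.577 points from the expected. Between the controls the other autosomes spread from -1.41 to 1.76 points. Set against single control libraries in the same way, knockdown replicate 1 gave 1.18 and 1.07 points, which lay within that spread. Knockdown replicate 2 gave 3.13 and 3.43 points, above it. These 4 comparisons share their control libraries. Against knockdown replicate 2 the other autosomes spread more widely than between the controls. They ran from -5.26 to 2.65 points for control replicate 1 and from -4.85 to 2.46 points for control replicate 2. Chromosome 7, the highest of them in both, lay above the control spread as well.

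**Figure D2:**
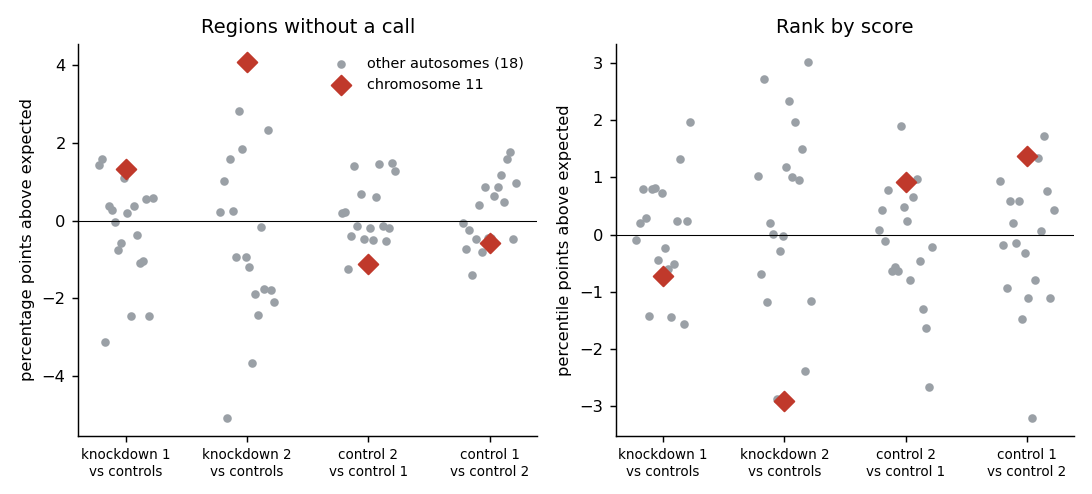
Chromosome 11 (diamonds) and the other 18 autosomes (dots) relative to autosomes of equal rank, for each knockdown library against the controls and for the controls against each other. Left, percentage points of regions without a call; right, percentile points of rank by score; chromosome 11 stands at 4.09 and -2.91 points in knockdown replicate 2 and at 1.33 and -0.717 points in knockdown replicate 1.

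The difference from the other autosomes varied over control strength. In 10 groups of control rank, 49.7% of the weakest group on chromosome 11 were control-specific against 48.7% elsewhere. The shares were 38.5% and 31.8% in group 2, 23.1% and 16.7% in group 4, and 15.7% and 9.84% in group 5. In group 7 the order turned, at 3.59% and 4.57%. In groups 8 and 9 chromosome 11 was again the higher, at 3.39% against 1.84% and at 2.14% against 0.979%. Among the 355 regions of groups 9 and 10 there were 4 control-specific regions, none of them in group 10, where 0 of 168 allows a share of up to 2.17%. Chromosome 11 had the higher share in 8 of the 10 groups, although the intervals of the 2 sets overlapped in all 10. For knockdown replicate 1 alone this held in 7 groups, and for knockdown replicate 2 alone in 9. The 4 weakest groups held 225 of the 278 control-specific regions (80.9%), close to the 83.2% on the other autosomes.

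**Figure D3:**
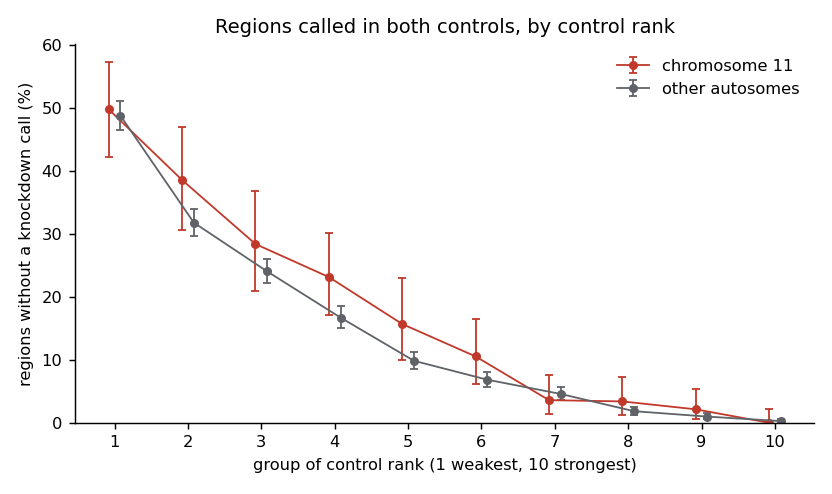
Share of regions called in both controls that had no call in either knockdown library, in 10 groups of control rank, with 95% Clopper-Pearson intervals over regions. On chromosome 11 the share falls from 49.7% to 0 between the weakest and the strongest group, on the other autosomes from 48.7% to 0.269%, and the intervals of the 2 sets overlap in all 10 groups.

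Local crowding of regions was higher on chromosome 11, and the comparison was repeated within bands of it. With 0 to 3 other control regions within 250 kb, the share without a knockdown call stood 7.79 points above the expected over 130 regions. With 4 to 6 neighbours the excess was 2.95 points, with 7 to 10 it was 1.06 points, with 11 to 15 it was 3.95 points and with 16 or more it was 0.546 points. The other autosomes ranged from -0.586 to 0.768 points over the same bands. In the band of 16 or more neighbours, with 291 regions of chromosome 11, the other autosomes stood at 0.726 points and were the higher. Matched on both control rank and local density, the excess of chromosome 11 was 2.47 points. Against chromosomes 19, 9 and 17 alone, the autosomes closest to it in density, it was 2.01 points.

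The classes were also counted in lists of equal length. With each list limited to its 15309 top-scoring peaks, 81 of 978 regions of chromosome 11 called in both controls (8.28%) had no knockdown call, against 7.23% on the other autosomes. The reverse class then held 60 of 821 regions (7.31%), against 7.02% elsewhere. The excess at equal control rank was 1.65 points in lists of equal length.

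Along the chromosome, most bins had more control-specific regions than expected. Of the 22 bins with at least 20 regions called in both controls, 18 (81.8%) stood above the expected share. On the other autosomes 48.2% of the 342 such bins did. The chromosome was chosen with its excess known, so a high share of such bins is in part given by that choice. Bins 11 and 23 stood above by only 0.0975 and 0.0841 points. In knockdown replicates 1 and 2 taken singly, 15 and 16 of the 22 bins stood above the expected share. Bin 13 (60 to 65 Mb) had 14 of 55 regions without a knockdown call, 10.2 points above the expected share. Bin 19 (90 to 95 Mb) had 11 of 50, an excess of 7.67 points, and bin 24 (115 to 120 Mb) had 32 of 148, an excess of 7.39 points. In bin 24 the excess was 2.02 points in knockdown replicate 1 and 19.2 points in knockdown replicate 2. The libraries were closer to each other in bin 19, at 7.82 and 5.92 points, and in bin 13, at 7.97 and 10.8 points. In bins 5, 7, 11, 12, 18, 21 and 23, also above the expected share, the knockdown libraries differed in direction. In bin 12 they stood at -2.04 and 10.0 points, and in bin 18 at 3.67 and -5.18 points. In bin 4 each library taken singly stood below its expected share.

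Of the same 22 bins, 4 had fewer losses than expected. Bin 1, which holds the centromeric end, had 2 control-specific regions of 52, where 6.84 were expected. Bin 14 (65 to 70 Mb) had 8 of 87, where 14.9 were expected, and bin 2 had 7 of 43, where 7.65 were expected. Bin 10 stood at -0.834 points. Taken singly, knockdown replicates 1 and 2 differed in direction in all 4 bins. They stood at -8.77 and 3.38 points from the expected share in bin 1, and at -4.98 and 3.51 points in bin 2. In bin 14 they stood at -4.72 and 3.32 points, and in bin 10 at 0.608 and -3.92 points. Bin 3 had 0 of 14, where 1.79 were expected, and holds too few regions for this comparison.

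**Figure D4:**
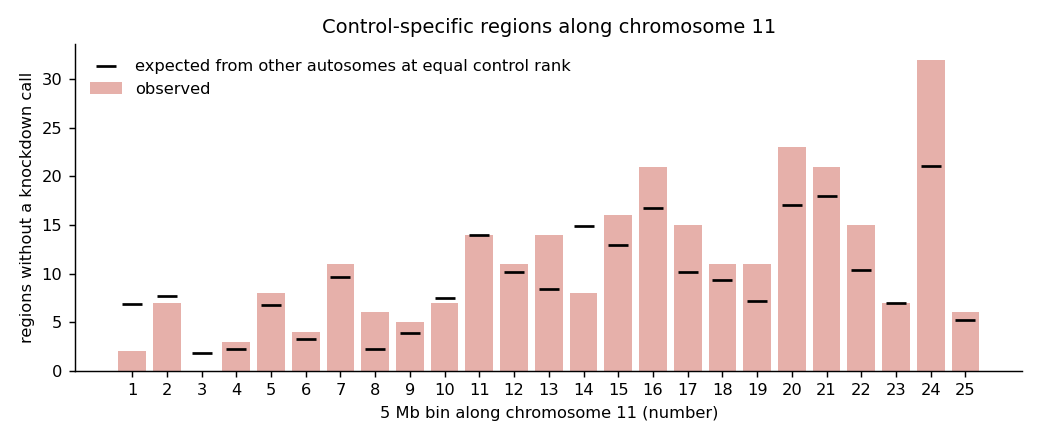
Control-specific regions per 5 Mb bin of chromosome 11 (bars) and the number expected from other autosomes at equal control rank (black marks). Bin 24 has 32 regions where 21.1 are expected, and bins 1 and 14 have 2 and 8 where 6.84 and 14.9 are expected.

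The excess was larger in the distal part of the chromosome; the difference between the parts was not tested. The split at 75 Mb was chosen after the bins had been seen. Up to 75 Mb, 116 of 712 regions called in both controls (16.3%) were control-specific and 15.7% were expected. From 75 Mb on, 162 of 909 (17.8%, 95% Clopper-Pearson interval 15.4 to 20.5%) were control-specific and 13.4% were expected. The distal excess was 3.27 points in knockdown replicate 1 and 5.21 points in knockdown replicate 2, and the proximal one was -1.15 and 2.66 points. Distal regions were also the stronger ones in the controls, with a mean control rank of 57.7 against 53.4 percentile points, and the denser ones, with a median of 12 against 9 neighbours within 250 kb.

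Control-specific regions often followed each other. Of the 278, 110 (39.6%) had another control-specific region as the next control region on either side. This share was 28.7% over the other autosomes and ran there from 18.4% on chromosome 19 to 33.7% on chromosome 2. Such a share rises by itself where control-specific regions are more frequent, as on chromosome 11. The longest run, as long as the longest on any other autosome, held 5 regions between 34695064 and 35507179, across bins 7 and 8, and was singled out after its values were seen. Its scores ranged from 56.6 to 141 in control replicate 1 and from 53.1 to 101 in control replicate 2. Bin 8, where most of this run lies, had 13 and 12 regions with a call in the controls but 3 and 5 in the knockdown libraries, the lowest numbers of any bin of the chromosome. It holds too few regions for a share of its own.

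The 6 leading control-specific regions scored above the median of chromosome 11 in both controls. In bin 10, the stretch from 49774799 to 49775331 scored 169 in control replicate 1 and 206 in control replicate 2, and the nearest knockdown peaks were 5172 and 4992 bp away. In bin 24, the region from 115991632 to 115992279 scored 158 and 217, with knockdown peaks at 7963 and 58373 bp. The region from 67668599 to 67669007 scored 176 and 178, with knockdown peaks at 35324 and 41716 bp. Their control ranks were 84.8, 83.6 and 82.8 percentile points.

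A further 3 regions follow in control rank. From 59918212 to 59918548 the scores were 216 and 144, and the nearest knockdown peaks lay 19709 and 19622 bp away. The region from 103020196 to 103020887 scored 162 and 167, and here both knockdown libraries had a peak close by, at 2561 and 2551 bp. The last, from 117174182 to 117174736 in bin 24, scored 135 and 213, with knockdown peaks at 44821 and 44785 bp. Of its 10 neighbours within 100 kb, 3 were control-specific too and 4 were called in all 4 libraries. The other 5 regions had no control-specific neighbour within 100 kb. In both controls 36 of the 278 had a score of at least 100, a share similar to the 327 of 2714 on the other autosomes.

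On chromosome 11, 110 of 2193 regions (5.02%) had a call in a knockdown library and in no control, near the 5.84% of all regions. Their higher knockdown score had a median of 59.3, against 58.6 for such regions on the other autosomes, and a highest value of 187. It was at least 100 in 4 of the 110 (3.64%). On the other autosomes it was so in 33 of 1465 (2.25%), with a highest value of 143. Of the 9 called in both knockdown libraries, 4 lay in bin 20 (95 to 100 Mb), which held 188 of the 2193 regions. The highest in rank, at 97808817 to 97809053, had a score of 78.1 in knockdown replicate 1 and of 169 in knockdown replicate 2. The next, from 75097176 to 75097658, scored 66.2 and 93.1, with control peaks 6598 and 6561 bp away. The last of the leading 3, from 5890875 to 5891322, scored 61.3 and 68.7, with control peaks 4677 and 4600 bp away. Over all 9, scores ranged from 51.0 to 78.1 in replicate 1 and from 55.0 to 169 in replicate 2.

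The regions called in every library had a lower mean rank in both knockdown libraries than in both controls. The 889 such regions were ranked by score among the 11741 of the whole genome. Their mean rank was 52.328 percentile points in control replicate 1 and 51.88 in control replicate 2, then 50.001 in knockdown replicate 1 and 47.721 in knockdown replicate 2. On the other autosomes the means of the 4 libraries lay between 49.824 and 50.092. Relative to other autosomes of equal control rank, chromosome 11 stood at -1.81 points, with -0.717 in knockdown replicate 1 and -2.91 in knockdown replicate 2. Chromosome 17 stood lower, at -1.98 points, and chromosome 3 highest, at 1.76 points. Without knockdown replicate 2 the value was -1.05 points. In the same measure between the controls, chromosome 11 stood at 0.916 and 1.37 points, while the other autosomes ran from -3.20 to 1.91 points. Set against single control libraries in the same way, knockdown replicate 1 stood at -0.475 and -0.665 points on chromosome 11. Knockdown replicate 2 stood at -2.90 and -3.00 points. All 4 values lay below both control values of chromosome 11, but within the spread that autosomes show between the 2 control libraries. The lower end of that spread was set by chromosome 12.

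Single regions changed rank in both directions. Both knockdown ranks lay below both control ranks in 183 of the 889 regions (20.6%), where 17.9% of all regions called in every library did. Both lay above in 136 (15.3%), where 19.2% of all did. The mean knockdown rank was lower in 506 of the 889 (56.9%), and in 5279 of 10559 on the other autosomes.

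In 5 Mb bins, the mean ranks of the groups overlapped in most bins and separated in some. Of the 19 bins with at least 20 regions called in all 4 libraries, 6 had both knockdown means below both control means. These were bins 5, 16, 18, 19, 22 and 23. Of the 230 such bins of other autosomes 26.1% did, and 6 of 19 is read against that share as no result about the chromosome. None of the 19 had both knockdown means above both controls, where 17.0% of bins elsewhere did. At equal control rank, 11 of the 19 bins (57.9%) stood below the expected difference, against 55.7% of bins elsewhere.

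Bin 23 (110 to 115 Mb) had the lowest value, -10.8 points at equal control rank. Its 26 regions had control means of 52.3 and 46.9 and knockdown means of 39.8 and 36.8. Bin 19 followed at -9.24 points, with 46.9 and 43.3 in the controls and 37.4 in both knockdown libraries. Bin 18 stood at -4.85 points, from 55.7 and 52.7 to 46.8 and 45.1. The highest values were 4.06 points in bin 12, 1.74 points in bin 17 and 0.840 points in bin 13, and in these 3 bins the libraries of the groups overlapped. In bin 24 the knockdown libraries parted, with mean ranks of 54.9 in replicate 1 and 42.5 in replicate 2 against 57.1 and 54.3 in the controls.

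**Figure D5:**
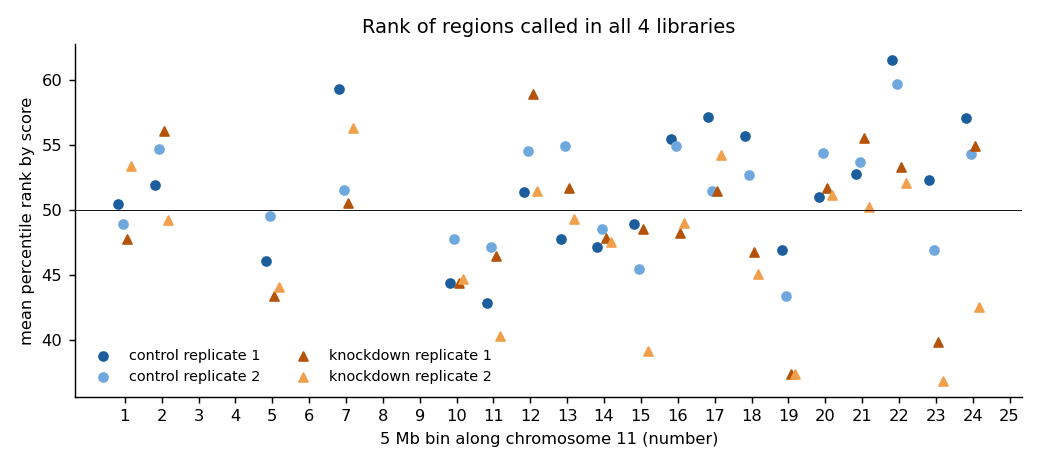
Mean percentile rank by score of the regions called in all 4 libraries, per 5 Mb bin of chromosome 11 and library, for the 19 bins with at least 20 such regions. In bins 5, 16, 18, 19, 22 and 23 both knockdown libraries (triangles) lie below both controls (circles), and in bin 24 only knockdown replicate 2 does.

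From 75 Mb on, the 503 regions called in every library had control means of 55.0 and 53.5 and knockdown means of 50.6 and 47.7. Up to 75 Mb, the 386 regions had control means of 48.9 and 49.7 and knockdown means of 49.2 and 47.7. The distal groups did not overlap, while the proximal groups did, with knockdown replicate 1 between the 2 controls. At equal control rank the distal regions stood at -2.62 points (-1.32 and -3.91 in knockdown replicates 1 and 2) and the proximal ones at -0.767 points (0.0714 and -1.61).

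The largest single falls led from the upper to the lower end of the order. The region from 11642637 to 11643289 had control ranks of 95.7 and 75.6 percentile points and knockdown ranks of 19.7 and 6.67. Its control scores were 324 and 187 and its knockdown scores 70.7 and 55.2, close to the lowest score of 50. The region from 79037804 to 79038443 showed control scores of 210 and 196 and knockdown scores of 61.5 and 54.1. Similar falls were seen from 115858267 to 115858879, with scores of 279 and 190 against 66.0 and 62.2, and from 74190161 to 74190839, with 246 and 313 against 79.0 and 64.4. The changes in mean rank of these 4 regions ran from -72.5 to -68.1 points.

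Rises were named by the same rule. The region from 79211401 to 79212392 showed control scores of 164 and 128 and knockdown scores of 156 and 151. Scores were lower over the whole of the knockdown lists, and its mean rank was 38.4 points higher there. The region from 61442923 to 61443632 showed control scores of 149 and 154 and knockdown scores of 149 and 182. From 83628983 to 83629638 the scores were 180 and 124 against 208 and 119. The region from 66835686 to 66836315 showed control scores of 204 and 141 and knockdown scores of 258 and 237, above both controls also without ranking. These regions were taken from those above the median control rank, of which 148 of 480 lay below both controls and 37 above. High control ranks leave more room to fall, and nothing is read from these 2 counts or from the sizes of the named falls and rises.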

How the data were processed

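CTCF ChIP-seq peak lists of 2 control and 2 TFII-I knockdown libraries of WEHI-231 were analysed. Per the submitters' processing notes, BWA, HOMER and mm9 were used, without versions or roles. Per the peak names in the files, a caller of the MACS family made 1 list per library. No source used here gives its settings or an input. The deposited value per peak is the authors' score, compared by rank within each list. Positions count from 1.

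Overlapping peaks (1 bp) were merged, and the highest score per library was kept. Regions were compared with the other autosomes in 20 bins of control rank. The 5 Mb bins were assigned by a region's middle. Each group is given by its mean and SD (n = 2) and tested by exact two-sided permutation of the libraries. Regions named are the 3 strongest, the 6 leading control-specific and 3 knockdown-specific, and the 4 largest falls and 4 largest rises without overlap of the groups, among regions up to 1 kb wide above the median control rank. Bins named are extremes of region number, excess and rank difference with at least 20 regions. The chromosome, lists and rules were chosen with earlier results of these data known. Alternatives were a score of at least 100, equal list length, merging within 500 bp, an overlap of 50% (with the region's longest peak, since every peak lies wholly in its region), other bins and matching, no regions over 1 kb, and leaving out each library. Sequence and gene annotation of mm9 were not used here. Calculations used python 3.11.15, numpy 2.4.6, pandas 2.3.3, scipy 1.17.1 and matplotlib 3.10.9, and were tested on simulated data.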

Additional observations from a re-analysis of the deposited data

How the results depend on the processing

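The excess without a knockdown call stayed positive in all 15 alternatives run, from 1.31 to 4.09 points, and the rank difference stayed negative in all 16, from -3.24 to -1.05 points. The unmatched values (2.58 and -3.24 points) and matching on the mean rank of all 4 libraries (-3.01 points) were chosen after seeing the data. With a score of at least 100 there were 1339 regions, a density ratio of 1.81, 349 control-specific and 0 knockdown-specific regions. A smaller share of knockdown peaks than of control peaks reaches that score, and no test was made of that 0. At equal list length the density ratio was 1.64, with 81 control-specific and 60 knockdown-specific regions. The density ratio was 1.83 in 2 Mb bins, 2.10 in 10 Mb bins and 1.59 with bins shifted by 2.5 Mb; the cause of these shifts was not tested. When single libraries were left out, which loosens each class, control-specific regions ran from 377 (no knockdown replicate 2) through 444 (no control replicate 2) to 633 (no knockdown replicate 1). Knockdown-specific regions ran from 25 (with 1 control left) through 50 (no knockdown replicate 1) to 69 (no knockdown replicate 2). With the replicate number as a block, the excess was 2.31 points (1.18 and 3.43 in the 2 pairs), the rank difference -1.68 points, and the peak number and list share differed by 578 and 0.248 with an exact sign-flip p of 0.5, the smallest possible. The rank deviations of same-numbered libraries had a correlation of 0.0105 over 11741 regions, and of 0.0545 over those on chromosome 11. Ranks within a library hide a shared depth or list length. The correlation therefore cannot decide whether same-numbered libraries were handled together. The named falls and rises kept their direction in every setting that gave a value, and the unknown depth limits every count of missing calls.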
